A study of Mus musculus with 18 samples.

Results

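This account follows 9 genes that mark position along the mouse intestine, Gata4, Gata6, Cdx1, Cdx2, Onecut2, Gkn3, Fabp6, Slc10a2 and Hnf4a, of 43432 gene identifiers in the deposited count tables. They were chosen by name, for what is known of where along the gut each is used, with earlier results of these data in view. The question addressed is whether the libraries differ in the stretch of intestine they represent. Counts came from 18 libraries of flow-sorted intestinal stem cells of mice aged 8 to 16 weeks, with 5000 to 10000 cells sorted per sample. The groups were 5 Dlg1 knock-out (KO) and 5 wild-type (WT) libraries taken 14 days after tamoxifen, and 4 KO and 4 WT libraries taken 48 hours after it, called 2 days here. Every group, WT included, had received tamoxifen, the drug that switches on the conditional deletion. Dlg1 encodes a scaffold protein of epithelial polarity. The sources used here give neither the Cre driver nor the gut segment dissected. They also do not say that the replicates were separate animals, so each p-value reflects the spread among these libraries, which may be technical. Each time is its own table, so a difference between 14 and 2 days cannot be told apart from one of run, table or cohort.

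The small intestine runs from the duodenum through the jejunum to the ileum, and its stem cells keep a memory of their segment in their transcription factors. Gata4, a zinc-finger factor of the duodenum and jejunum, is known in mice to hold ileal genes such as Fabp6 and Slc10a2 low in the proximal gut. Its relative Gata6 is used along the whole length. Cdx2 and Cdx1, homeobox factors of the caudal family, give the gut its intestinal rather than gastric character, and both are known to be used more towards the distal end. Hnf4a is a nuclear receptor that drives enterocyte genes in all segments. Onecut2 is a homeobox factor enriched in the duodenum, and Gkn3, a secreted gastrokine, has been used as a mark of proximal stem cells in mice. Fabp6 (the ileal bile acid-binding protein) and Slc10a2 (the apical bile acid transporter) are the classical genes of ileal enterocytes.

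Promoter sequence is shown for the pair of ileal genes and for Cdx2, the member that differed most between times. Each runs 5′ to 3′ on the gene's own strand, comes from the RefSeq promoter table of GRCm38.p6, and ends before the annotated gene begins. Capitals mark matches on either strand to 1 of 3 short strings of letters. The string for Cdx factors is TTTAT, which reads ATAAA on the other strand. For GATA factors it is AGATAA. For Hnf4a it is CAAAGT, which reads ACTTTG on the other strand.
Fabp6: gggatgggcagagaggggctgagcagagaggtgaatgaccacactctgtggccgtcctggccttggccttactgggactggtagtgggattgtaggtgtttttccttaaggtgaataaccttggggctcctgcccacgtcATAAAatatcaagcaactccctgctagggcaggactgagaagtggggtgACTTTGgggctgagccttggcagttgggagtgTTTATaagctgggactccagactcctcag
Slc10a2: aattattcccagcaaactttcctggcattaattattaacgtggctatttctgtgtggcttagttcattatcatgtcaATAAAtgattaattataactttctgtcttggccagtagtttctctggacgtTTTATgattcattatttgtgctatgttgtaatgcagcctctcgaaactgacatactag
Cdx2: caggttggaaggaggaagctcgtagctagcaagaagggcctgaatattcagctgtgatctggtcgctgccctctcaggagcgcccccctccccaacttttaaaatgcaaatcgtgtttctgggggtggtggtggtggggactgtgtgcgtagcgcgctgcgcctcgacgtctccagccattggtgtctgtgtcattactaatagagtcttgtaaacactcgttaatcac
The stretches are chr11:43601563-43601812 for Fabp6, chr8:5105352-5105537 for Slc10a2 and chr5:147307271-147307499 for Cdx2. That of Fabp6 holds 2 matches to the Cdx letters and 1 to the Hnf4a letters, and that of Slc10a2 holds 2 to the Cdx letters. In windows of the same length from 27025 promoters, the Cdx letters occur at least once in 38.1% at the 250 bases of Fabp6. At the 186 bases of Slc10a2 that share is 31.0%, and the share of windows with 2 matches is not given here. The Hnf4a letters occur in 12.5% of the 250-base windows. None of these letter strings is in the 229 bases of Cdx2. No match overlaps another, and a match is a string of letters, not a shown site of binding.

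Libraries held 11.1 to 15.7 M counts at 14 days and 14.8 to 40.5 M at 2 days, and mitochondrially encoded genes took 6.21% to 26.3% of them at 14 days and 26.1% to 49.1% at 2 days. WT library 1 at 2 days had the highest total, the highest mitochondrial share and the fewest genes detected (16073), and KO library 5 at 14 days had the lowest total and the most genes detected (26773). Levels are given as CPM, a gene's counts as a rate over its library's scaled total. The targeted gene Dlg1 averaged 55.6 ± 19.8 CPM in KO and 63.3 ± 10.4 CPM in WT libraries at 14 days (SD, n = 5 each; log2 fold change -0.17, standard error or SE 0.22). At 2 days Dlg1 averaged 54.0 ± 9.97 CPM in KO and 70.3 ± 10.8 CPM in WT libraries (SD, n = 4 each), and its log2 fold change was -0.38 (SE 0.19). Neither passed the test, and counts over the whole gene do not fully check the deletion. The 2 day columns read as KO carry a prefix taken to mean Dlg1 minus, and every 2 day comparison rests on that reading.

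In GRCm38 with the GENCODE M21 annotation, Gata4 lies on chromosome 14 from 63198922 to 63271692 (minus strand) and Hnf4a on chromosome 2 from 163506808 to 163572910 (plus strand). Cdx2 lies on chromosome 5 from 147300805 to 147307270, Gkn3 on chromosome 6 from 87383256 to 87388935, Fabp6 on chromosome 11 from 43596049 to 43601540 and Slc10a2 on chromosome 8 from 5083219 to 5105351, all on the minus strand. Chromosome 18 holds Gata6 from 11052064 to 11085635 and Onecut2 from 64340020 to 64400987, both on the plus strand, and Cdx1 from 61018862 to 61036199 on the minus strand. Exons of Gata6 overlap those of 1010001N08Rik, a transcript of the opposite strand. The sources used here do not say whether counting used strand, so reads of this pair cannot be told apart. The overlapping transcript averaged 10.6 ± 2.57 CPM in KO and 7.89 ± 2.31 CPM in WT libraries at 14 days (SD, n = 5 each). At 2 days it averaged 8.83 ± 2.74 CPM in KO and 8.11 ± 0.822 CPM in WT libraries (SD, n = 4 each), against 47.5 to 82.3 CPM of Gata6 over all libraries.

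Lgr5, the receptor that marks crypt base stem cells, was present in every library. It averaged 73.3 ± 17.2 CPM in KO and 70.3 ± 16.0 CPM in WT libraries at 14 days (SD, n = 5 each). At 2 days it averaged 199 ± 48.5 CPM in KO and 263 ± 75.6 CPM in WT libraries (SD, n = 4 each). Levels set against each other between genes are given as CPM per kilobase of exon. On that scale Hnf4a stood highest of the 9 genes at 2 days, at 159.7 ± 11.9 in KO and 167 ± 10.2 in WT libraries (SD, n = 4 each), and its libraries did not overlap with those of the next gene, Gata4. Behind Gata4, at 34.4 ± 6.33 in KO and 33.3 ± 1.44 in WT libraries, came Cdx1, Onecut2, Cdx2, Gkn3 and Gata6 in KO and Onecut2, Cdx1, Gkn3, Cdx2 and Gata6 in WT libraries, and each of these overlapped with its neighbour in the order. At 14 days Cdx1 and Hnf4a led together, at 72.4 ± 15.9 and 69.8 ± 14.1 in KO and 75.3 ± 12.8 and 74.0 ± 10.8 in WT libraries (SD, n = 5 each), with overlapping libraries. Gkn3, Onecut2, Gata4, Gata6 and Cdx2 followed, and of the neighbours among these 5 only Gkn3 and Onecut2 overlapped. Fabp6 and Slc10a2 were last in every group, and at 14 days Fabp6 overlapped with Cdx2. Fabp6 averaged between 1.15 and 2.51 CPM per kilobase over the 4 groups and Slc10a2 between 0.181 and 0.550. In every group the mean levels of the proximal and pan-intestinal genes stood above those of the pair of ileal genes. That pair belongs to enterocytes and the sorted cells were stem cells, so this order cannot tell which segment the libraries came from.

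**Figure D1:**
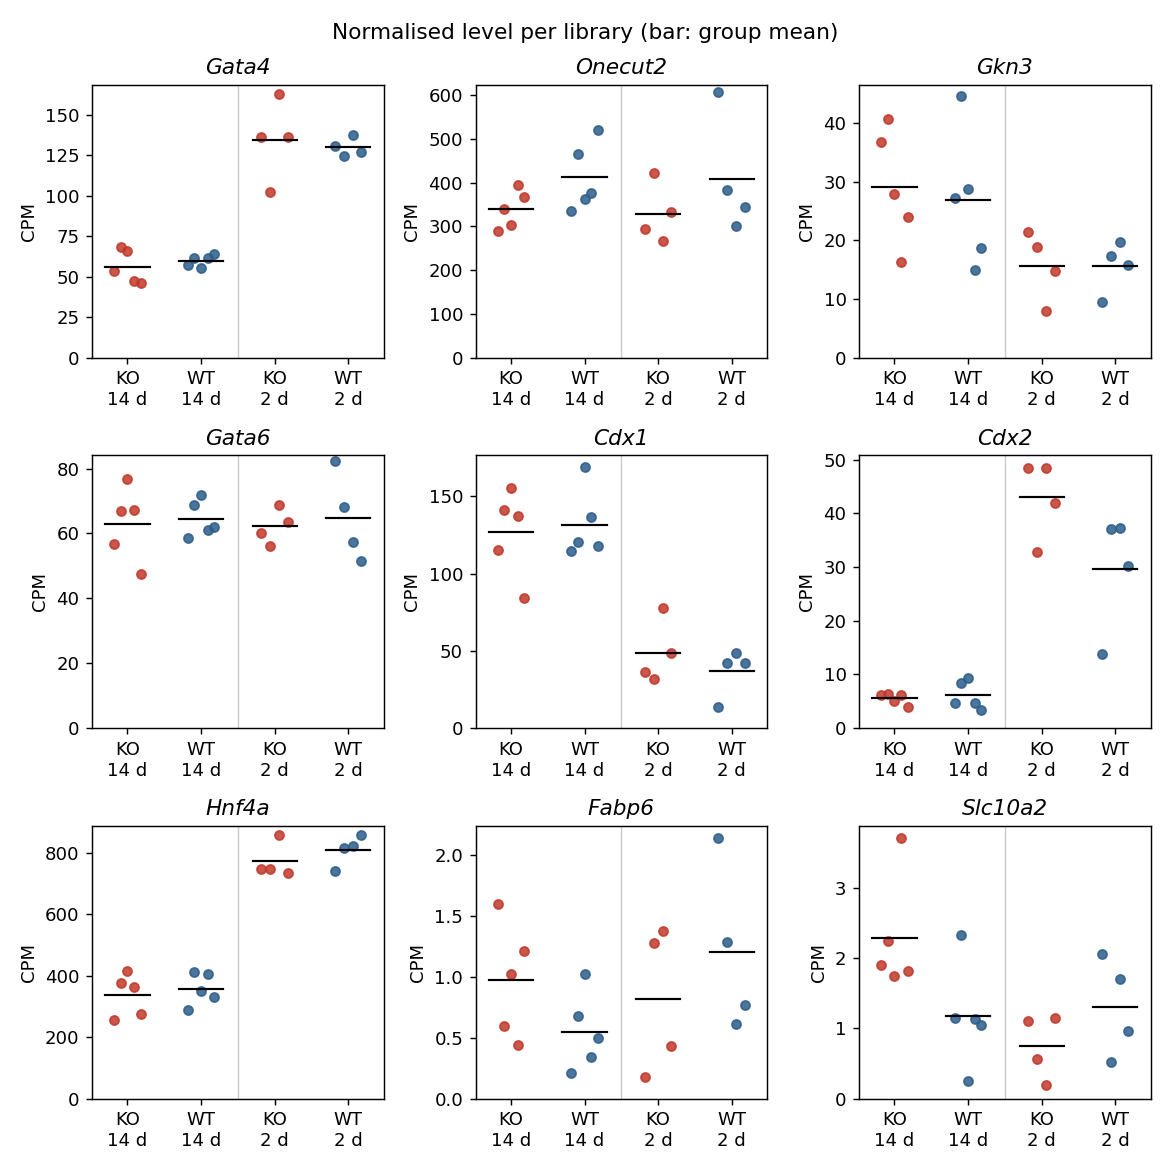
Level of each gene in CPM (y axes, linear, each from 0) in every library, with KO in red, WT in blue and a bar at the group mean. Gata4, Cdx2 and Hnf4a stand lower and Cdx1 higher at 14 days than at 2 days in both genotypes, whereas KO and WT libraries of the same time overlap for all 9 genes.

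Between KO and WT libraries the log2 fold changes of the 9 genes ran from -0.26 to 0.95 at 14 days and from -0.80 to 0.54 at 2 days, with the widest intervals for the pair of ileal genes. All 9 passed the filter on low counts in every fit. None was called between KO and WT by edgeR's quasi-likelihood test at an adjusted p under 0.05, at 14 days or at 2 days. The background was the same, with 0.0% of 13991 genes called at 14 days and 0.0% of 13031 at 2 days. DESeq2 called 1 gene at 14 days and 13 at 2 days, and none of them was among the 9. At an unadjusted p under 0.05 none of the 9 counted either, against 3.99% and 4.91% of all genes tested. The KO and WT libraries overlapped for every one of the 9 at both times, whereas they do not overlap for 0.55% of genes at 14 days and 3.93% at 2 days.

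Among the proximal factors, Gata4 stood at 53.7, 68.0, 65.5, 47.3 and 46.0 CPM in KO libraries and at 57.2, 61.2, 55.3, 61.6 and 63.7 CPM in WT libraries at 14 days. The log2 fold change was -0.07 (SE 0.14, 95% interval -0.37 to 0.23). At 2 days Gata4 stood at 136, 102, 162 and 136 CPM in KO libraries and at 131, 124, 137 and 127 CPM in WT libraries, a log2 fold change of 0.05 (SE 0.16, interval -0.30 to 0.40). At both times the KO libraries spread wider than the WT libraries and surrounded them. Onecut2 had 290.2, 339.5, 304, 395 and 368 CPM in KO and 336, 466, 364, 376 and 521 CPM in WT libraries at 14 days, with a log2 fold change of -0.26 (SE 0.18, interval -0.64 to 0.12). The 2 day libraries had 294, 423, 268 and 333 CPM in KO and 607, 384, 301 and 344 CPM in WT libraries, with a log2 fold change of -0.31 (SE 0.23, interval -0.81 to 0.19). The highest library at 2 days was WT library 1, which stands apart in depth, and without it the log2 fold change was -0.06. Gkn3 stood at 36.8, 40.7, 27.9, 16.2 and 24.1 CPM in KO and 27.3, 44.7, 28.7, 15.03 and 18.7 CPM in WT libraries at 14 days, a log2 fold change of 0.14 (SE 0.29, interval -0.49 to 0.77). At 2 days Gkn3 stood at 21.4, 18.9, 7.87 and 14.7 CPM in KO and 9.42, 17.4, 19.8 and 15.8 CPM in WT libraries, a log2 fold change of 0.02 (SE 0.33, interval -0.71 to 0.75). Both genotypes covered nearly the same range at each time. The intervals for Gata4 exclude a change of 1 on the log2 scale at both times, as do those for Onecut2 and Gkn3.

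The caudal factors overlapped between genotypes too, with wider intervals at 2 days. Cdx1 had 116, 141, 155, 137 and 84.1 CPM in KO and 114, 120.5, 169, 137 and 118 CPM in WT libraries at 14 days, a log2 fold change of -0.04 (SE 0.17, interval -0.41 to 0.34). The 2 day libraries had 36.1, 31.7, 78.1 and 48.8 CPM in KO and 13.8, 42.2, 48.8 and 42.4 CPM in WT libraries, a log2 fold change of 0.41 (SE 0.37, interval -0.41 to 1.22). The lowest of these 2 day libraries was again WT library 1, and without it the log2 fold change was 0.13. Cdx2 had 6.17, 6.39, 5.12, 6.11 and 3.99 CPM in KO and 4.66, 8.46, 9.41, 4.76 and 3.36 CPM in WT libraries at 14 days, a log2 fold change of -0.11 (SE 0.31, interval -0.78 to 0.55). At 2 days Cdx2 had 48.5, 32.9, 48.4 and 42.0 CPM in KO and 13.9, 37.1, 37.3 and 30.2 CPM in WT libraries. Of the 4 KO libraries 3 lay above every WT library, with a log2 fold change of 0.54 (SE 0.29, interval -0.09 to 1.17). That difference had an adjusted p of 0.866 by edgeR (quasi-likelihood, Benjamini-Hochberg), and a two-sided exact permutation p of 0.114. Without WT library 1, the lowest for Cdx2 as well, the log2 fold change was 0.30. Gata6, the factor used along the whole length, averaged 63.0 ± 11.2 CPM in KO and 64.5 ± 5.59 CPM in WT libraries at 14 days (SD, n = 5 each). At 2 days it averaged 62.1 ± 5.36 CPM in KO and 64.9 ± 13.6 CPM in WT libraries (SD, n = 4 each). Its log2 fold changes were -0.01 (SE 0.14) at 14 days and -0.06 (SE 0.18) at 2 days. Those of Hnf4a were -0.06 (SE 0.18) and -0.06 (SE 0.15).

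The ileal genes were read from very few counts, 4 to 21 per library at 14 days and 3 to 50 at 2 days for Fabp6, and 3 to 51 and 3 to 48 for Slc10a2. Slc10a2 stood at 1.91, 2.24, 1.76, 3.71 and 1.81 CPM in KO libraries and at 1.15, 2.34, 0.257, 1.13 and 1.05 CPM in WT libraries at 14 days. All KO libraries lay above 4 of the 5 WT libraries, and WT library 2 lay above 4 of the 5 KO libraries. Slc10a2 averaged 2.29 ± 0.820 CPM in KO and 1.18 ± 0.743 CPM in WT libraries (SD, n = 5 each). The two-sided exact permutation p was 0.0397, where 0.00794 is the smallest this design allows. It was the only one of 18 such tests of the 9 genes under 0.05, a level reached by 3.97% of all genes tested at 14 days and 3.93% at 2 days. It no longer held after removal of any 1 library at 14 days other than KO library 3 or WT library 2. The edgeR quasi-likelihood test gave a log2 fold change of 0.95 (SE 0.50, interval -0.11 to 2.01) with a Benjamini-Hochberg adjusted p of 0.957. At 2 days Slc10a2 stood at 1.10, 0.559, 0.197 and 1.15 CPM in KO and 2.06, 0.525, 1.71 and 0.960 CPM in WT libraries, a log2 fold change of -0.80 (SE 0.76, interval -2.46 to 0.85). Fabp6 had 1.60, 0.593, 1.02, 0.437 and 1.21 CPM in KO and 0.209, 0.675, 1.03, 0.344 and 0.496 CPM in WT libraries at 14 days, a log2 fold change of 0.85 (SE 0.55, interval -0.32 to 2.03). The 2 day libraries had 0.174, 1.28, 1.38 and 0.430 CPM in KO and 2.14, 1.28, 0.616 and 0.768 CPM in WT libraries, a log2 fold change of -0.55 (SE 0.79, interval -2.27 to 1.17). WT library 1 was the highest at 2 days for both ileal genes, and without it the log2 fold change was -0.50 for Slc10a2 and -0.12 for Fabp6. The intervals of both genes at both times include a change of 1 on the log2 scale in at least 1 direction.

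The genotype effect at 14 days minus that at 2 days was tested in 1 fit of all libraries, where 0.0% of 15458 genes were called. None of the 9 genes was called, and none had an unadjusted p under 0.05, against 5.96% of all genes. Slc10a2 had the largest such difference of the 9, 1.74 on the log2 scale (SE 0.90, edgeR quasi-likelihood adjusted p = 0.824). Fabp6 had 1.38 (SE 0.98, adjusted p = 0.861) and Cdx2 had -0.66 (SE 0.43, adjusted p = 0.860), and the other 6 lay between -0.46 and 0.10.

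**Figure D2:**
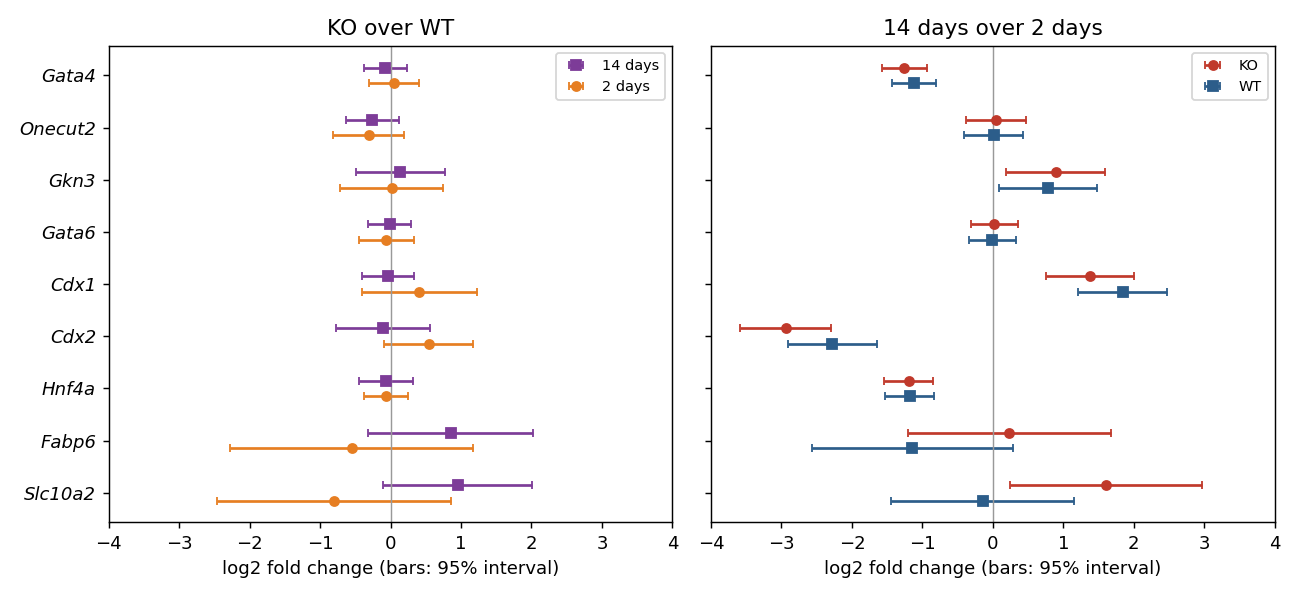
Log2 fold change of each gene from edgeR (x axes) with its 95% interval, for KO over WT at 14 and 2 days (left) and for 14 over 2 days in KO and WT (right). Every KO over WT interval crosses 0, and the intervals of Gata4, Cdx1, Cdx2 and Hnf4a for 14 over 2 days lie away from 0 in both genotypes.

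Between the times the factors parted. Cdx2, Hnf4a and Gata4 were lower and Cdx1 higher at 14 days than at 2 days in both genotypes, while Gata6 and Onecut2 were not called. In KO libraries 6 of the 9 genes were called, 3 higher and 3 lower, against 50.4% of 15458 genes called, 25.3% higher and 25.1% lower (55.8% at an unadjusted p under 0.05). In WT libraries 4 of the 9 were called, 1 higher and 3 lower, against 53.4% of all genes, 27.7% higher and 25.7% lower (58.6% at an unadjusted p under 0.05, where 5 of the 9 stood). These shares are near the background, so the number of calls says nothing particular about the 9 genes. The KO and WT comparisons of times use separate libraries but come from 1 fit with a shared filter, scaling and estimate of spread. They are therefore not fully independent of each other, and both share libraries with the KO over WT comparisons.

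Cdx2 averaged 5.56 ± 1.01 CPM in KO libraries at 14 days (SD, n = 5), against 43.0 ± 7.38 CPM at 2 days (SD, n = 4). In WT libraries it averaged 6.13 ± 2.64 CPM at 14 days (SD, n = 5), against 29.6 ± 10.997 CPM at 2 days (SD, n = 4). No library of either genotype at 14 days reached the lowest at 2 days. The log2 fold change of Cdx2 by edgeR's quasi-likelihood test was -2.94 in KO (SE 0.31, adjusted p = 1.3e-07) and -2.28 in WT (SE 0.30, adjusted p = 2.4e-06). In KO libraries 1.59% of all genes tested had a lower fold change than this, and in WT libraries 3.84%. Cdx1, its paralog, went the other way. It averaged 127 ± 27.8 CPM in KO libraries at 14 days (SD, n = 5), against 48.7 ± 20.9 CPM at 2 days (SD, n = 4), a log2 fold change of 1.38 (SE 0.30, edgeR adjusted p = 0.00061). In WT libraries Cdx1 averaged 132 ± 22.5 CPM at 14 days (SD, n = 5), against 36.8 ± 15.6 CPM at 2 days (SD, n = 4), a log2 fold change of 1.84 (SE 0.31, edgeR adjusted p = 3.4e-05).

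The ratio of Cdx1 to Cdx2 within a library needs no scaling between libraries. In counts per base of exon it was 24.2, 28.6, 39.2, 29.0 and 27.2 in KO libraries at 14 days, against 0.961, 1.24, 2.08 and 1.502 at 2 days. In WT libraries it was 31.7, 18.4, 23.2, 37.1 and 45.3 at 14 days, against 1.29, 1.47, 1.69 and 1.81 at 2 days. The KO and WT libraries of a time overlapped, and the times were far apart. WT library 1 at 2 days, low for both genes, had a ratio of 1.29 like its group. The ratio of Gata4 to Gata6 was 1.17 to 1.70 in KO and 1.28 to 1.71 in WT libraries at 14 days. At 2 days it was 3.03 to 3.94 in KO and 2.65 to 4.12 in WT libraries. Here too the genotypes overlapped at each time and the times did not.

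**Figure D3:**
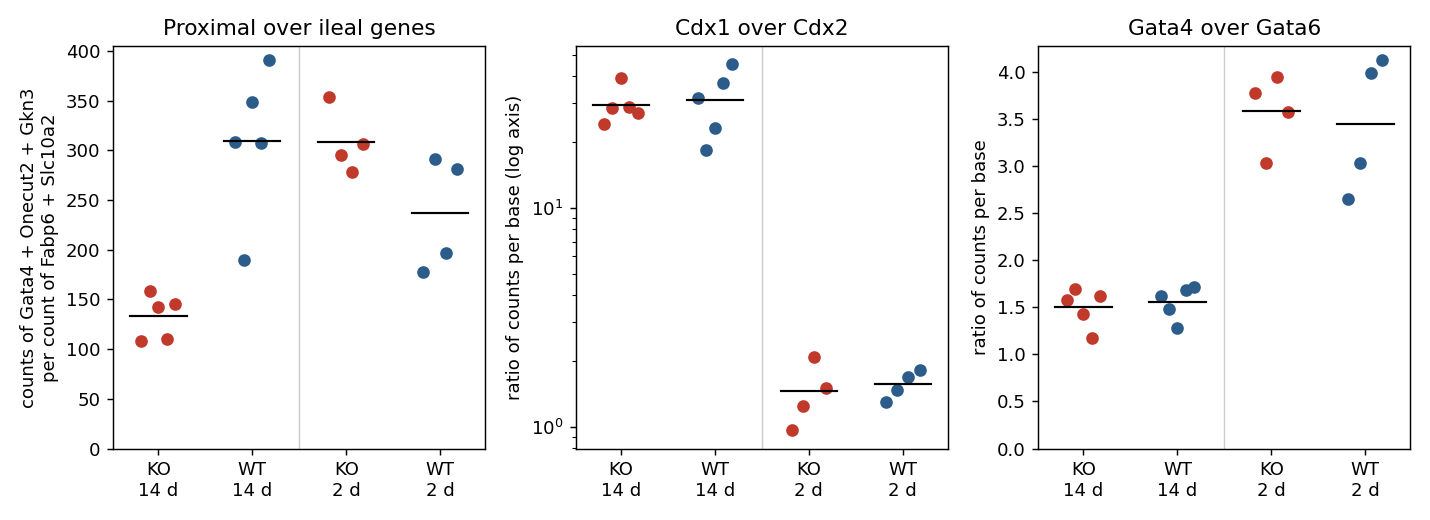
Ratios within each library (y axes), with KO in red, WT in blue and a bar at the group mean: counts of Gata4, Onecut2 and Gkn3 together per count of Fabp6 and Slc10a2 together (left), Cdx1 over Cdx2 per base on a log axis (middle), and Gata4 over Gata6 per base (right). The Cdx1 over Cdx2 ratio lies above 18 in every library at 14 days and near 1 to 2 at 2 days, and the left ratio separates KO from WT at 14 days on few ileal counts.

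Gata4 averaged 56.1 ± 10.2 CPM in KO libraries at 14 days (SD, n = 5), against 134 ± 24.7 CPM at 2 days (SD, n = 4), and fell by 1.26 on the log2 scale (SE 0.15, edgeR adjusted p = 7.3e-07). In WT libraries it averaged 59.8 ± 3.44 CPM at 14 days (SD, n = 5), against 129.8 ± 5.63 CPM at 2 days (SD, n = 4), and fell by 1.12 (SE 0.15, edgeR adjusted p = 2.8e-06). Hnf4a had 256, 375, 415, 362 and 275 CPM in KO libraries at 14 days, against 745, 748, 857 and 735 CPM at 2 days. In WT libraries Hnf4a had 289, 412, 349, 406 and 329 CPM at 14 days, against 739, 815, 821 and 857 CPM at 2 days. The times did not overlap in either genotype. The log2 fold change of Hnf4a was -1.19 in KO (SE 0.17, edgeR adjusted p = 4.9e-06) and -1.18 in WT (SE 0.17, edgeR adjusted p = 5.2e-06). The groups of the 2 times do not overlap for 43.1% of all genes in KO and 43.0% in WT.

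Gata6 and Onecut2 were called in neither genotype. For Gata6 the log2 fold change of 14 over 2 days was 0.02 in KO (SE 0.16, interval -0.31 to 0.36) and -0.01 in WT (SE 0.16, interval -0.34 to 0.32). For Onecut2 it was 0.04 in KO (SE 0.20, interval -0.38 to 0.46) and 0.01 in WT (SE 0.20, interval -0.41 to 0.43). Gkn3 averaged 29.1 ± 9.84 CPM in KO libraries at 14 days (SD, n = 5), against 15.7 ± 5.91 CPM at 2 days (SD, n = 4), a log2 fold change of 0.89 (SE 0.34, edgeR adjusted p = 0.0321). In WT libraries it averaged 26.9 ± 11.49 CPM at 14 days (SD, n = 5), against 15.6 ± 4.43 CPM at 2 days (SD, n = 4), a log2 fold change of 0.79 (SE 0.34, edgeR adjusted p = 0.0527). The call in KO was lost without KO library 3 or 4 at 2 days or KO library 1 or 2 at 14 days, with values of 0.68, 0.86, 0.79 and 0.74. It was also lost in the 14 day libraries with header letter J alone, at 0.54. Slc10a2 was called in KO, with a log2 fold change of 1.60 (SE 0.66, edgeR adjusted p = 0.0466), and not in WT, with -0.14 (SE 0.62, edgeR adjusted p = 0.865). The KO call was lost without KO library 2 or 3 or WT library 3 or 4 at 2 days, and without KO library 1, 2, 3 or 4 or WT library 1, 4 or 5 at 14 days. Over these removals the value ran from 1.30 to 1.69 and the adjusted p from 0.0511 to 0.118. It was lost as well with no filter on low counts (1.61) and in the 14 day libraries of letter B (1.48) or J (1.71) alone. Fabp6 was called in neither, with 0.23 in KO (SE 0.69) and -1.15 in WT (SE 0.69).

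Longer genes tended to have lower fold changes at 14 days. Across 15334 genes with a length, which are not independent replicates, Spearman's rho of transcript length with the log2 fold change was -0.40 in KO and -0.41 in WT. The longest transcripts run from 479 bases for Fabp6, 1750 for Cdx1 and 2261 for Cdx2 to 16234 for Onecut2, and the part of length in the differences was not tested. The stem list was also lower at 14 days, with 12 of 16 tested members called lower in KO (median log2 fold change -1.43) and 13 of 16 in WT (-1.75). Over all genes 25.1% were called lower in KO and 25.7% in WT, with medians of 0.06 and 0.12. In bulk samples, fewer cells of a type and less RNA per cell cannot be told apart. The enterocyte list of 20 genes summed to 1871 to 5199 CPM in KO and 2141 to 7406 CPM in WT libraries at 14 days, and to 2685 to 8389 CPM in KO and 2678 to 3361 CPM in WT libraries at 2 days. The Paneth list of 10 genes summed to 2938 to 5011 CPM in KO and 1842 to 14593 CPM in WT libraries at 14 days, and to 806 to 2346 CPM in KO and 242 to 3746 CPM in WT libraries at 2 days. All members of both lists were detected in every library, and their part in the differences between times was not tested.

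Other intestinal transcription factors give the setting of these changes. Of 21 such factors, all tested, 4 were called higher and 10 lower at 14 days than at 2 days in KO, and 4 higher and 11 lower in WT, with a median log2 fold change of -0.46 in each. Over all genes 25.3% were called higher and 25.1% lower in KO, and 27.7% and 25.7% in WT. The log2 fold change of Nr5a2, a nuclear receptor of crypt cells, was -1.28 in KO (SE 0.15) and -1.39 in WT (SE 0.15). Elf3, an epithelial ETS factor, rose by 1.35 in KO (SE 0.24) and 1.82 in WT (SE 0.24). Both genes passed at an adjusted p under 0.05 in both genotypes. None of the 21 was called between KO and WT at either time.

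Whether the libraries came from different segments was also read from marker lists. The proximal list held 16 genes, among them 4 that are also in the enterocyte list (Lct, Apoa4, Apoa1 and Slc5a1). At 14 days 1 of 13 tested was higher in KO than in WT, with a median log2 fold change of -0.47, against 0.01 over all genes. At 2 days 12 of 14 tested were higher in KO, with a median of 1.35, against 0.01 over all genes. None was called at either time. The genes of smallest p at 14 days were Lct, the lactase of the brush border, with -1.45 (SE 0.56), and Creb3l3, an enterocyte factor of lipid metabolism, with -0.47 (SE 0.19). At 2 days they were Creb3l3 with 1.66 (SE 0.61) and Slc46a1, the proton-coupled folate transporter of the duodenum, with 1.39 (SE 0.58).

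The enterocyte list moved the same way, with 2 of 20 higher in KO at 14 days (median -0.37) and 19 of 20 at 2 days (median 1.17), none of them called. KO library 1 at 2 days held 8389 CPM of the enterocyte list and 1615 CPM of the proximal list. The other KO libraries at 2 days held 2685 to 4048 CPM and 313 to 627 CPM, and the WT libraries 2678 to 3361 CPM and 363 to 465 CPM. Without KO library 1 the proximal median at 2 days was 0.11, with 8 of 14 higher. Without WT library 1 it was 1.21. At 14 days the proximal median ran from -0.76 without KO library 1 to 0.02 in the libraries with header letter B alone. Without WT library 3 at 14 days it was -0.10, with 4 of 13 higher. That library held 1725 CPM of the proximal list and 7406 CPM of the enterocyte list. The other WT libraries at 14 days held 317 to 663 CPM and 2141 to 3108 CPM. The part of enterocyte content in the proximal list was not tested.

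The distal list of 10 ileal genes was mixed. At 14 days 4 of 9 tested were higher in KO (median -0.16) and at 2 days 7 of 9 (median 0.47), with none called. Without KO library 1 the 2 day median was 0.14. Without WT library 3 the 14 day median was 0.19, with 6 of 9 higher, and other removals of 1 library at 14 days gave -0.38 to -0.04. Slc51a, a subunit of the basolateral bile acid exporter, had the smallest p at 2 days, averaging 12.2 ± 4.02 CPM in KO and 4.32 ± 1.95 CPM in WT libraries (SD, n = 4 each). Its log2 fold change was 1.51 (SE 0.44, edgeR adjusted p = 0.866). Fgf15, the ileal hormone that reports bile acids to the liver, held at most 5 counts in KO and 27 in WT libraries at 14 days, and at most 13 in KO and 4 in WT libraries at 2 days. Osr2, a zinc-finger factor of the list, was measured in every library, at 25.2 ± 8.23 CPM in KO and 29.6 ± 10.7 CPM in WT libraries at 14 days (SD, n = 5 each). At 2 days Osr2 averaged 37.6 ± 1.54 CPM in KO and 39.7 ± 16.3 CPM in WT libraries (SD, n = 4 each). Between times, Amn, which carries the vitamin B12 receptor to the ileal surface, rose by 3.05 in KO (SE 0.38) and 3.28 in WT (SE 0.38). Nr1h4, the bile acid receptor, rose by 1.32 (SE 0.23) and 1.30 (SE 0.23), both past the threshold in both genotypes. Of the 10 distal genes, 3 were called higher and 0 lower in KO (median 0.09, or 0.66 without KO library 1 at 2 days). In WT 6 were called higher and 0 lower (median 1.62). Leaving out 1 library, the WT median ran from 1.21 without WT library 3 at 14 days to 1.74 without WT library 2 at 2 days. Of 14 proximal genes tested, 3 were called higher and 5 lower in KO (median -0.52, or 0.09 without KO library 1 at 2 days). In WT 5 were called higher and 0 lower (median 0.92). Leaving out 1 library, this WT median ran from 0.51 without WT library 3 to 1.23 without WT library 2, both at 14 days. Beside both lists stand the shares over all genes, 25.3% called higher and 25.1% lower in KO (median 0.06). In WT these shares were 27.7% and 25.7% (median 0.12). S100g and Creb3l3 rose by 2.49 (SE 0.58) and 1.81 (SE 0.43) in KO and by 2.63 (SE 0.58) and 3.97 (SE 0.48) in WT. Lct, with a log2 fold change of -2.92 (SE 0.82), and Slc15a1, the brush border peptide transporter, with -2.89 (SE 0.82), were called lower in KO. In WT they were not called, with 0.47 (SE 0.79) and -0.02 (SE 0.79).

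Markers of neighbouring organs were near the floor. Of 11 colon genes in the tables, 10 stayed below 2 CPM in every library, and 9 in KO and 8 in WT had no count at 2 days, where 3 counts over a group would be 0.0390 CPM in KO and 0.0424 CPM in WT. At 14 days the genes with no count were Car1 in KO and Hoxd13 in WT, where 3 counts over a group would be 0.0469 and 0.0339 CPM. Of 10 stomach genes 7 stayed below 2 CPM in every library. Sox2, Tff1, Gkn1, Gkn2 and Muc5ac had no count in any library at 2 days, so Gkn3 was measured without the gastric gastrokines there. Pgc, the pepsinogen of the list, averaged 3.64 ± 1.94 CPM in KO and 3.16 ± 1.37 CPM in WT libraries at 14 days (SD, n = 5 each), and 9.23 ± 6.31 CPM in KO and 10.2 ± 8.03 CPM in WT libraries at 2 days (SD, n = 4 each).

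**Figure D4:**
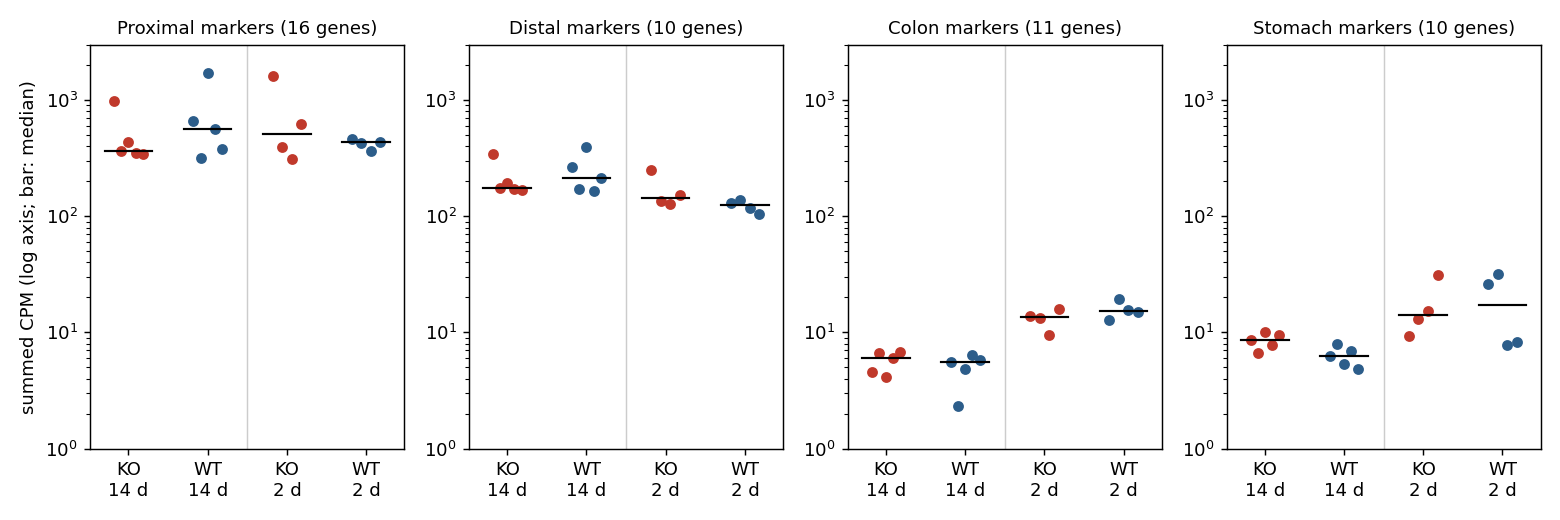
Summed CPM of the proximal, distal, colon and stomach marker lists (y axes, log scale, the same range in all panels) in each library, with KO in red, WT in blue and a bar at the group median. Proximal and distal sums lie above 100 CPM in every library and colon and stomach sums below 35 CPM. For the proximal list, KO library 1 at 2 days, at 1615 CPM, is the highest of its group. WT library 3 at 14 days, at 1725 CPM, is the highest of its own.

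Of 39 Hox genes, which pattern the body from front to back, 7 passed the filter in the fit of all libraries. Hoxa9 averaged 7.80 ± 6.87 CPM in KO and 6.09 ± 3.16 CPM in WT libraries at 14 days (SD, n = 5 each), and 0.0906 ± 0.138 CPM in KO and 0.872 ± 0.983 CPM in WT libraries at 2 days (SD, n = 4 each). It was called higher at 14 days in both genotypes, from at most 5 counts a library in KO and 52 in WT at 2 days. Hoxb6 was called lower in both, with -3.01 in KO (SE 0.84) and -2.004 in WT (SE 0.78). Hoxa3 with -2.76 (SE 0.83) and Hoxa2 with -2.98 (SE 0.96) were called lower in KO, and the other 3 tested were called in neither. Of 13 bile acid genes 2 were called higher and 4 lower at 14 days in KO, and 7 higher and 4 lower in WT, and the KO count is near the share over all genes given above. The bile acid list shares Slc51a, Slc51b, Fgf15 and Nr1h4 with the distal list, and all of these were among the genes called higher in WT. The nuclear receptor Nr1i2 had a log2 fold change of -1.68 in KO (SE 0.17) and -1.93 in WT (SE 0.17), called in both.

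A segment index per library was formed as the mean log2 level of Gata4, Onecut2 and Gkn3 minus that of Fabp6 and Slc10a2, with 0.5 CPM added to each value. A higher index means more of the proximal genes against the ileal ones. Because the ileal pair are enterocyte genes read in sorted stem cells, the level of the index does not by itself name a segment. At 14 days it was 5.22, 5.83, 5.48, 5.10 and 5.24 in KO libraries and 6.23, 5.90, 6.29, 5.93 and 6.12 in WT libraries, a difference of the means of -0.72. The groups did not overlap. Within the header letters, whose order this fixes, the index was 5.22 to 5.83 in KO and 5.90 to 6.23 in WT for letter B, and 5.10 to 5.48 in KO and 5.93 to 6.29 in WT for letter J. At 2 days the index was 6.53, 6.10, 5.97 and 6.16 in KO and 5.15, 6.13, 5.91 and 6.04 in WT libraries, a difference of 0.38 in the other direction, and the groups overlapped. Without WT library 1 the difference at 2 days was 0.16. The proximal term of the index averaged 6.34 ± 0.200 in KO and 6.42 ± 0.223 in WT libraries at 14 days. The ileal term averaged 0.967 ± 0.140 in KO and 0.326 ± 0.315 in WT libraries (SD, n = 5 each), from 3 to 51 counts per gene. Neither term alone separated the genotypes. The ileal term ran from 0.792 to 1.17 in KO and from 0.104 to 0.868 in WT libraries. The proximal term ran from 6.09 to 6.62 in KO and from 6.16 to 6.77 in WT libraries. The 14 day difference in the index was -0.99 with 0.1 CPM added and -0.41 with 2 CPM added, so its size depends on how low counts are treated. In plain counts, Gata4, Onecut2 and Gkn3 together held 109, 158, 143, 110.4 and 145 counts per count of Fabp6 and Slc10a2 in KO libraries and 309, 190.1, 349, 307 and 391 in WT libraries at 14 days. At 2 days this ratio was 278 to 353 in KO and 178 to 291 in WT libraries. The KO libraries lay below all WT libraries at 14 days, and the groups overlapped at 2 days. The index and the ratio are descriptions without a test, from genes chosen with results of these data known. How often other gene sets separate KO from WT in this way was not tested. The wider distal list had a median of -0.16 in KO over WT at 14 days, with 4 of 9 tested higher. Without WT library 3 that median was 0.19.

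The 9 genes were also asked whether they vary together from library to library, in 14 pairs per table set with results of these data known. None passed the adjustment over its 14 pairs. The smallest p was for Fabp6 with the mean level of the enterocyte list at 2 days, with Pearson's r = -0.77 (n = 8 libraries, permutation p = 0.0135, adjusted p = 0.124, Spearman's rho = -0.60, permutation p = 0.132) and -0.60 without the 2 libraries farthest from the median of Fabp6. At 14 days this pair gave r = 0.18 (n = 10, permutation p = 0.609, adjusted p = 0.721). Next was Cdx1 with Cdx2 at 2 days, with Pearson's r = 0.87 (n = 8 libraries, permutation p = 0.0177, adjusted p = 0.124, Spearman's rho = 0.55, permutation p = 0.171). Without the 2 libraries farthest from the median of Cdx1 r was 0.083, so the relation rests on them. At 14 days the same pair gave r = 0.54 (n = 10, permutation p = 0.103, adjusted p = 0.704, rho = 0.61, permutation p = 0.0664) and 0.089 without those libraries. Fabp6 with Slc10a2 gave r = -0.18 at 2 days (n = 8, permutation p = 0.668, adjusted p = 0.779) and -0.035 at 14 days (n = 10, permutation p = 0.929, adjusted p = 0.929). As deviations from the mean of each genotype, r for this ileal pair was -0.41 at 2 days and -0.54 at 14 days. Without the 2 libraries farthest from the median of Fabp6 it was -0.86 and -0.27, all from low counts. Without KO library 3 at 2 days Onecut2 with Fabp6 passed (r = 0.90, permutation p = 0.0032, adjusted p = 0.0444, n = 7), and without WT library 1 Gata4 with Onecut2 passed (r = -0.93, permutation p = 0.00079, adjusted p = 0.0111, n = 7).

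For each gene the closest patterns among 9091 genes were sought over 18 libraries after removing the 4 group means. They are descriptions, and libraries share their depth and composition. Gata4 was most like Pcyox1 and Phb2 (r 0.83 to 0.84), Gata6 like Rmi2, G3bp1 and Irf2bp1 (0.86 to 0.91), and Hnf4a like Aldh5a1, Actr1b and Ccnjl (0.83 for each). Cdx1 was most like Dcakd, Ppm1g and Mtch1 (0.93 to 0.95) and Cdx2 like Rps16, Plin3 and Usp12 (0.86 to 0.87). Onecut2 was most like Rere, Rbm25 and Rbbp6 (0.93 to 0.95) and Gkn3 like Cldn3, Nceh1 and Taf1a (0.82 to 0.86). Fabp6 was most like S100a6, Rsrc2 and Cebpb (0.79 to 0.83) and Slc10a2 like Tmem41b, Ppm1b and Mpzl3 (0.83 to 0.87), both from low counts. None of the 9 genes was among the closest of another.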

How the data were processed

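RNA sequencing was done on 18 libraries from sorted stem cells of the mouse intestine. The authors deposited unnormalized counts for each Ensembl gene, with a table for each time. Their processing notes, as submitted, name STAR 2.4.2a, bcl2fastq 2.20.0.422 and the GRCm38 build. Per the labels, polyadenylated RNA was made into libraries with SmartSeq and Nextera XT kits. The sources used here do not give the counting program or its strand setting. No molecular identifiers are named, so floors cover counting error only. The intervals come from the fit and also cover the spread among these libraries.

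Columns carry no replicate number, so libraries were numbered by place within a group. Headers at 14 days carry a letter B (libraries 1 and 2 of each genotype) or J (3 to 5). Symbols matched 42548 of 43432 identifiers. KO was compared with WT within each table by edgeR 4.0.16 (R 4.3.3), with filterByExpr at a minimum count of 10, TMM scaling, quasi-likelihood tests and Benjamini-Hochberg adjustment over all genes tested. A call is an adjusted p under 0.05. The difference between times and the change of genotype effect came from 1 fit of all libraries. SE is the absolute log2 fold change over the square root of F, and 95% intervals use the fit's degrees of freedom. CPM are counts over TMM-scaled totals of all libraries. Single-gene permutation tests were two-sided and exact, on log2(CPM + 0.5). Correlations at 14 days used 100000 resamples. The test was also run on counts simulated from the mean levels and estimated spread of these data, with no library made to stand apart. That run cannot check its behaviour with libraries such as WT library 1 at 2 days, and its outcome is not given here.

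The 9 genes, the marker lists and the pairs were chosen with earlier results of these data known. All 9 genes are named, with up to 4 members of a list by smallest p per comparison, the 3 closest patterns per gene, and Dlg1. Lgr5, Fgf15, Osr2 and Pgc were chosen for naming with their values in view. Some results under these rules are not reported here. The other settings tried were RLE and upper-quartile factors, no filter, a minimum count of 50, DESeq2 1.42.0, limma voom 3.58.1, no mitochondrial genes, 1 fit of all libraries, and leaving out libraries. The header letter alternatives and those of the marker lists were chosen after seeing the data.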

Additional observations from a re-analysis of the deposited data

Results flagged for a closer look

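In 40 sets of 4 or 5 libraries tested for a library far from the others, 2 were found, about what chance gives at 1 in 20. Cdx1 was lowest in WT library 1 at 2 days, at 13.8 CPM, where its gap to the next library took 0.884 of the group's range. Hnf4a was highest in KO library 3 at 2 days, at 857 CPM, with a gap of 0.883 of the range. WT library 1 also had the highest mitochondrial share of its table, 49.1%, and its part in the low Cdx1 was not tested.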

How the results depend on the processing

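No paired analysis was possible because the table columns carry no replicate numbers from the labels. None of the 9 genes was called between KO and WT, or for the change of genotype effect, under any alternative run. Calls of 14 over 2 days ran from 4 to 6 in KO and 4 to 5 in WT, and Gata4, Cdx1, Cdx2 and Hnf4a stayed called in both genotypes under all 28 alternatives of each. Gkn3 in WT was called in 12 of 28. The segment index difference at 14 days was -0.99 with 0.1 CPM added and -0.41 with 2 CPM. Leaving out 1 library gave -0.83 to -0.65 at 14 days and 0.16 to 0.49 at 2 days. The count of exact tests under 0.05 ran from 0 to 1, as did that of pairs passing. Over all genes, KO against WT at 2 days gave 7 calls with no filter, 13 by DESeq2 and 2 in the fit of all libraries. At 14 days it gave 2, 1 by DESeq2 and 1 in letter B libraries. The change of effect gave 98 with no filter and 13 by DESeq2.

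Uncalled values near 0 changed sign, and the cause was not tested. For 14 over 2 days in WT, Gata6 was 0.044 with RLE factors, 0.12 with upper-quartile factors, 0.00026 with no filter, 0.038 at a minimum count of 50, 0.044 by DESeq2, 0.00808 with no mitochondrial genes and 0.12 without both libraries that stand apart. Slc10a2 in WT was 0.0083 with upper-quartile factors, 0.16 without both libraries and 0.41 with letter B. Onecut2 with letter B was -0.050 in KO and -0.018 in WT. KO over WT at 14 days was 0.039 for Cdx2 by limma voom, 0.028 for Gata4 and 0.12 for Cdx1 with letter B, and 0.0018 for Gata6 with letter J. Without both libraries it was 0.047 for Gata6 and 0.057 for Cdx1 at 14 days, and 0.071 for Gata6 and -0.17 for Gkn3 at 2 days.

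Leaving out 1 library, KO over WT at 14 days ran from -0.12 to 0.064 for Cdx1, -0.26 to 0.084 for Cdx2, -0.099 to 0.047 for Gata6, -0.025 to 0.40 for Gkn3 and -0.16 to 0.025 for Hnf4a. At 2 days it ran from -0.067 to 0.16 for Gata4, -0.16 to 0.071 for Gata6 and -0.17 to 0.22 for Gkn3. For 14 over 2 days it ran from -0.099 to 0.59 for Fabp6, -0.057 to 0.13 for Gata6 and -0.0401 to 0.19 for Onecut2 in KO, and from -0.11 to 0.12 for Gata6, -0.11 to 0.26 for Onecut2 and -0.52 to 0.16 for Slc10a2 in WT. Counts of 3 to 51 limit what can be said of Fabp6 and Slc10a2.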
